A study of Mus musculus with 3 samples.

Results

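The Tgf-beta and activin signals of developing mouse back skin are described here through 8 genes of the 19165 in the deposited single-cell table: the ligands *Tgfb1*, *Tgfb2*, *Tgfb3* and *Inhba*, the receptors *Tgfbr1*, *Tgfbr2* and *Tgfbr3*, and the induced matrix gene *Tgfbi*. They were chosen by name, and all 8 were found in the table. The cell classes in which they are followed were named from markers that include none of them.

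Tgf-beta ligands are secreted in a latent form that is held in the matrix or on cell surfaces until it is released. The active dimer binds the type II receptor Tgfbr2, which recruits and phosphorylates the type I receptor Tgfbr1, and the signal reaches the nucleus through Smad proteins. Tgfbr3 (betaglycan) is a co-receptor that presents ligand, above all Tgfb2, and also binds inhibin. Inhba encodes the subunit of activin A, a relative of the Tgf-betas that acts through activin receptors and the same Smads and is trapped by follistatin. In skin, Tgfb2 is known for its part in early hair follicle growth, Tgfb1 for holding back keratinocyte growth, and activin for its part in follicle formation and wound repair.

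Dorsal skin of pooled male C57BL/6 mice, with no genetic change or treatment, was profiled cell by cell at E13.5, E16.5 and P0 on a droplet platform that reads transcript 3′ ends, 1 library per stage. These stages cover the induction, outgrowth and differentiation of hair follicles. Skin was digested with trypsin at E13.5 and E16.5 and with collagenase IV at P0. Stage, library and (between E16.5 and P0) enzyme therefore cannot be told apart, and no test, only counting error, stands behind any difference.

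In order of stage the table held 5962, 5208 and 5065 cells, with 53334740, 66239195 and 46599806 unique molecular identifiers (UMIs) and a median of 7066.5, 11021 and 6797 UMIs per cell. Between 32 and 44 cell barcodes were shared by each pair of libraries. Levels are UMIs summed over a class, scaled to 1000000 UMIs of that class (CPM), with an exact 95% Poisson interval. Ratios of levels have an exact interval too, and a ratio is called a difference when it is at least 2 in either direction, its interval leaves out 1 and the groups hold at least 50 UMIs together. Classes are named "-like" after their markers. Dermal-like cells numbered 1599, 2774 and 2282 and epithelial-like cells 213, 874 and 1474. At E13.5, 2511 cells (42.1%) had no clear class and belong to none of the classes, against 13.8% and 12% later. The 34 erythroid-like and 31 muscle-like cells of E16.5 and the 45 adipocyte-like cells of P0 were under the minimum of 50 cells and are left out of orders, ranges and statements on the highest or lowest class, with their values given where they would change one. The E13.5 classes are less pure. The summed dermal markers stood at 9499 CPM in dermal-like cells of that stage and at 7090 CPM in erythroid-like and 4160 CPM in neural-like cells. The part of such mesenchymal RNA in the members' levels of erythroid-like and neural-like cells was not tested.

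The members lie apart in the genome (GRCm38): *Tgfb1* at chr7:25687002-25705077, *Tgfb2* at chr1:186622792-186705989, *Tgfb3* at chr12:86056745-86079041, *Tgfbr1* at chr4:47353222-47414931, *Tgfbr2* at chr9:116084293-116175360, *Tgfbr3* at chr5:107106570-107289629, and *Inhba* and *Tgfbi* on the same chromosome at chr13:16011851-16031621 and chr13:56609523-56639562. Exons of *Tgfb2* overlap those of the opposite-strand gene Gm29491, and exons of *Tgfb3* those of Gm37804 and Gm48008 on the opposite strand. Exons of *Tgfbr3* overlap those of Gm43422 on the same strand, so that reads in the bases these genes share are uncertain.

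The 100 bases before the RefSeq start are shown for the ligands *Tgfb1*, *Tgfb2* and *Inhba*. The ligand *Tgfb3* had no entry among the RefSeq windows used. The lines read 5′ to 3′ on the strand of the gene, and capitals mark the motifs found (TATAAA, the E box CACGTG, and the GC box GGGCGG or its complement CCGCCC).
Tgfb1: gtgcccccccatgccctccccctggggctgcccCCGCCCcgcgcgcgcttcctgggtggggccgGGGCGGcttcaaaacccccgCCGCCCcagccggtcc
Tgfb2: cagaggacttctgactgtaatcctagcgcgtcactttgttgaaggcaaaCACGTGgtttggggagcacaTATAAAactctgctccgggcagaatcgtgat
Inhba: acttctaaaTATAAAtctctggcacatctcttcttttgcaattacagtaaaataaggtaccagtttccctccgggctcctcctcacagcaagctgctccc
The windows lie at chr7:25686902-25687001 (plus strand), chr1:186705990-186706089 (minus strand) and chr13:16011751-16011850 (plus strand). *Tgfb2* had a TATA motif 31 bases and an E box 51 bases before its start. *Inhba* had a TATA motif 91 bases before its start, and *Tgfb1* had 3 GC boxes, at 67, 36 and 16 bases, and no TATA motif. Of 32851 windows of the same length in RefSeq, searched on both strands, 24.7% held the GC box, 5.56% TATAAA and 3.17% the E box. The cyclic AMP element TGACGTCA (1.15% of windows), the AP-1 site TGANTCA (2.73%) and the Smad pair GTCTAGAC (0.0457%) were in none of these 3. *Tgfbr1* had 2 windows, of which the first held a GC box at 95 bases and the other held none of the 6 motifs. *Tgfbr2* and *Tgfbi* held none of them either.

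The members fell into distinct patterns of level over the classes. *Tgfb1* was highest in immune-like and endothelial-like cells, *Tgfb2* and *Tgfb3* in mesenchyme of the tendon or cartilage type and later in epithelium and pericytes, *Inhba* in the dermis, *Tgfbr2* in endothelium, and *Tgfbr1* was spread evenly. Each class was compared with all other cells of its library, those without a class included. Of 192 such ratios of the members, 23 were called higher and 77 lower, together 52.1%, where 22.0% of the ratios of all genes were called (7.51% higher and 14.4% lower). Of these 100 calls, 69 were kept under every alternative processing tried.

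**Figure D1:**
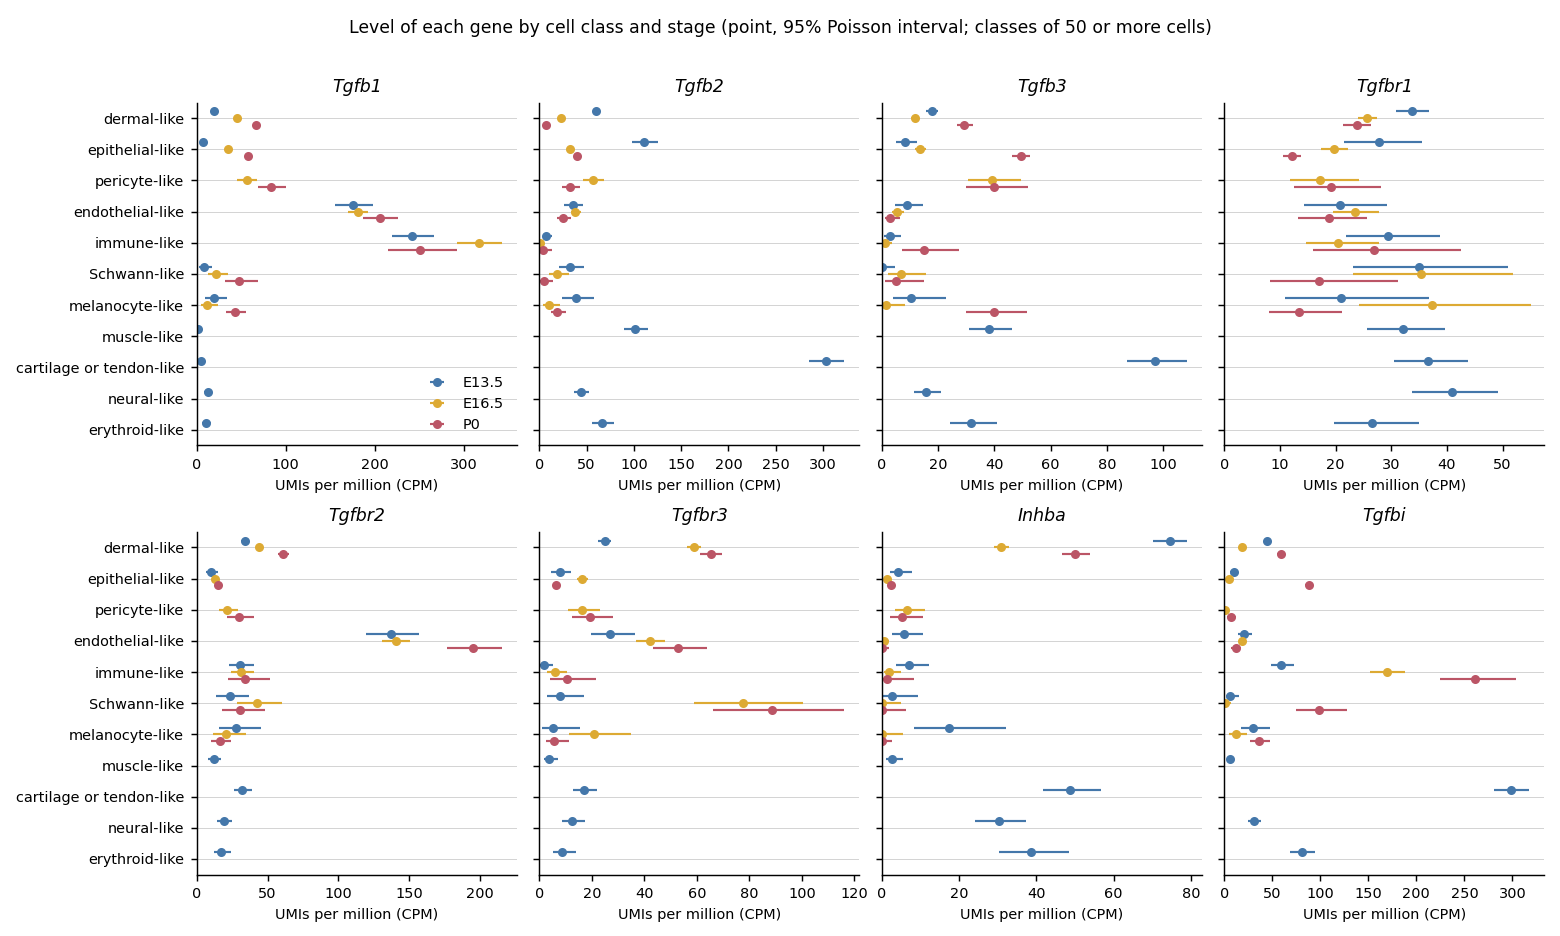
Level of each of the 8 genes (CPM, linear axis) in every named cell class of at least 50 cells at E13.5, E16.5 and P0. Points are the summed UMIs of a class in CPM and bars are exact 95% Poisson intervals, which cover counting error only. *Tgfb1* peaks in immune-like and endothelial-like cells at all 3 stages, *Inhba* in dermal-like cells, and the *Tgfbr1* points lie close together.

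*Tgfb1*, the ligand best known from immune regulation and wound repair, kept the same order at its top at all 3 stages. It stood at 242, 317 and 251 CPM in immune-like cells, the highest class each time. Endothelial-like cells came next, at 176 CPM (156 to 198), 181 and 206 through the stages. The ratio of immune-like to endothelial-like cells was 1.38 (1.18 to 1.61), 1.75 (1.58 to 1.93) and 1.22 (1.01 to 1.46), so the order held beyond counting error with a narrow margin at P0. Every other class was well below: endothelial-like cells were 8.91-fold, 3.25-fold and 2.47-fold above the class after them. Within the immune-like cells of E13.5, macrophage-like cells were at 303 CPM and mast-like cells at 190 CPM, a ratio of 1.59 that was not called, and *Tgfb1* was seen in 100% of the 62 macrophage-like cells (median 12924.5 UMIs) against 1.94% of muscle-like cells (median 16347 UMIs).

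*Tgfb2*, the ligand tied to follicle morphogenesis, had its highest level in different classes at different stages. A cartilage or tendon class was named only at E13.5 and a pericyte class only later, so these leaders could not be followed over all stages. Cells without a class held 40.6% of the *Tgfb2* UMIs of the E13.5 library. At E13.5 *Tgfb2* was highest in cells of the cartilage or tendon class (303 CPM, 285 to 322), followed by epithelial-like cells (111 CPM) and muscle-like cells (102 CPM). Epithelial-like and muscle-like cells did not differ beyond counting error, whereas the ratio of cartilage or tendon-like to epithelial-like cells was 2.74 (2.39 to 3.15). At E16.5 pericyte-like cells led at 57.0 CPM, ahead of endothelial-like cells at 38.3 CPM (ratio 1.49, 1.17 to 1.89). The endothelial-like level came in large part from 43 lymphatic-like cells, at 100.3 CPM with 95 of the 214 UMIs, and the endothelial-like cells without them were at 25.6 CPM. The muscle-like cells of that stage, too few to be ranked, were at 52.2 CPM (31.9 to 80.6). At P0 epithelial-like cells (40.0 CPM) and pericyte-like cells (32.4 CPM) could not be ordered (ratio 1.23, 0.910 to 1.71), and the epithelial-like cells held 66.5% of the library's *Tgfb2* UMIs. The unranked adipocyte-like cells of P0 were at 52.1 CPM (36.7 to 71.9; 37 UMIs). Immune-like cells were lowest before birth, at 7.64 and 0.998 CPM (2 UMIs in the latter), and at P0, at 4.48 CPM, could not be ordered against Schwann-like cells (1.14, 0.153 to 8.51).

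*Tgfb3*, the third ligand, known above all from palate fusion, shared the E13.5 and E16.5 leaders of *Tgfb2*. Cartilage or tendon-like cells stood at 97.3 CPM at E13.5, 2.55-fold (2.03 to 3.22) above muscle-like cells. Pericyte-like cells stood at 39.2 CPM at E16.5, 2.85-fold (2.15 to 3.76) above epithelial-like cells, while the unranked muscle-like cells were at 31.3 CPM (16.2 to 54.7). At P0 epithelial-like cells were at 49.4 CPM and pericyte-like and melanocyte-like cells at 39.8 CPM each, and the first of these did not differ from the next beyond counting error (1.24, 0.944 to 1.67). Epithelial-like cells held 56.9% of the *Tgfb3* UMIs of the P0 library. The gene was near its floor in immune-like cells before birth (2.94 and 0.998 CPM), and 0 UMIs were counted in Schwann-like cells at E13.5, which allows up to 4.78 CPM.

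*Inhba*, the activin A subunit, was highest in the dermis at every stage. Through the stages dermal-like cells had 74.5 CPM (70.3 to 78.9), 30.9 (29.0 to 32.9) and 50.1 (46.5 to 53.9). The next class of at least 50 cells was 1.53-fold, 4.79-fold and 9.71-fold lower, being the cartilage or tendon class at E13.5 (48.8 CPM) and pericyte-like cells later (6.45 and 5.16 CPM). The unranked erythroid-like cells of E16.5 were at 9.74 CPM (3.57 to 21.2; 6 UMIs). Epithelial-like cells were at 4.29, 1.48 and 2.41 CPM. In endothelial-like cells the level was 5.67 and 0.715 CPM before birth and 0 UMIs at P0, which allows up to 1.82 CPM. Schwann-like and melanocyte-like cells had 0 UMIs at E16.5 (up to 5.02 and 5.51 CPM) and at P0 (up to 6.28 and 2.62 CPM).

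The size of the dermal lead of *Inhba* at the later stages rested on cells of the dermal condensate and papilla, the mesenchymal aggregates that form under each follicle. These cells are in the dermal-like class here, and without them the dermis was at 11.1 and 11.8 CPM. Where a coarser clustering or another naming reference put the cells into other classes, the ratio of dermal-like to all other cells turned from 11 to 0.402 at P0 (resolution 0.5) and from 5.68 to 0.867 at E16.5 (reference at the median of the clusters).

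Among the receptors, *Tgfbr2* was highest in the endothelium. The type II receptor stood at 137 CPM (120 to 157), 141 (131 to 151) and 195 (177 to 216) in endothelial-like cells of the 3 stages, 4.06-fold (3.45 to 4.76), 3.18-fold (2.91 to 3.47) and 3.20-fold (2.83 to 3.60) above dermal-like cells, the next class. Dermal-like cells came next in order at 33.8, 44.3 and 61.1 CPM, and epithelial-like cells were low at 9.86, 13.1 and 15.3 CPM. Within E13.5 immune-like cells the receptor was at 52.8 CPM in macrophage-like and 8.86 CPM in mast-like cells (5.96-fold, 2.18 to 22.8; 16.7% of genes were called higher and 7.61% lower between these cells).

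The co-receptor *Tgfbr3* was highest in endothelial-like and dermal-like cells at E13.5 and in Schwann-like and dermal-like cells after that. Dermal-like cells stood at 24.9, 59.0 and 65.4 CPM, Schwann-like cells at 7.78, 77.6 and 88.5 CPM and endothelial-like cells at 27.1, 42.0 and 52.8 CPM. Endothelial-like and dermal-like cells could not be ordered at E13.5 (ratio 1.09, 0.776 to 1.5). Dermal-like and Schwann-like cells could not be ordered at E16.5 (ratio 1.32, 0.993 to 1.71) and differed at the limit of counting error at P0 (1.35, 1.003 to 1.79), where the unranked adipocyte-like cells were at 88.8 CPM (68.2 to 114). Immune-like cells were low throughout (1.76, 5.99 and 10.5 CPM), and 0 UMIs in the macrophage-like cells of E13.5 allow up to 4.23 CPM.

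*Tgfbr1*, the type I receptor on which the Tgf-beta signal depends, was the most evenly spread member. Levels ran from 20.8 CPM in endothelial-like to 41.0 CPM in neural-like cells at E13.5, from 17.2 CPM in pericyte-like to 37.4 CPM in melanocyte-like cells at E16.5, and from 12.1 CPM in epithelial-like to 26.9 CPM in immune-like cells at P0. No neighbours in that order differed beyond counting error at any stage, but the ends did, by 1.97-fold (1.33 to 3.0), 2.17-fold (1.23 to 3.78) and 2.22-fold (1.29 to 3.58), and none of its 24 class ratios was called in either direction. The unranked adipocyte-like cells of P0 were below that range at 9.86 CPM (3.965 to 20.32), with 7 UMIs. The peak of *Tgfbr1*, in papilla-like cells, is given with the dermal classes.

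*Tgfbi*, a secreted matrix protein named for its induction by Tgf-beta, was highest in cartilage or tendon-like cells at E13.5 and in immune-like cells after that, and reached the epidermis by P0. At E13.5 it was at 298 CPM (280 to 317) in cartilage or tendon-like cells, 3.67-fold (3.10 to 4.38) above the class after it. At E16.5 immune-like cells led at 170 CPM (152 to 189), 9.04-fold (7.25 to 11.4) above endothelial-like cells, while pericyte-like and Schwann-like cells had 1 UMI each. At P0 immune-like cells (261 CPM, 224 to 303) were followed by Schwann-like cells (98.7 CPM), epithelial-like cells (88.6 CPM) and dermal-like cells (59.1 CPM). Immune-like cells of P0 held epithelial markers at 2828 CPM and Schwann-like cells dermal markers at 8819 CPM, and the part of such RNA in their *Tgfbi* was not tested.

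Between stages, members were compared within each class found at both. Of 70 ratios, 17 were called higher and 6 lower at the later stage, together 32.9%, where 15.4% of the ratios of all genes were called (6.02% higher and 9.34% lower). The dissociation response, a list of immediate early and heat shock genes that tissue digestion is known to induce, moved with stage in the same classes: 95 of its 138 ratios were called higher and 3 lower. The summed level of that list in dermal-like cells was 383, 1801 and 4123 CPM and in epithelial-like cells 456, 1325 and 3990 CPM. Its part in the members' changes was not tested.

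**Figure D2:**
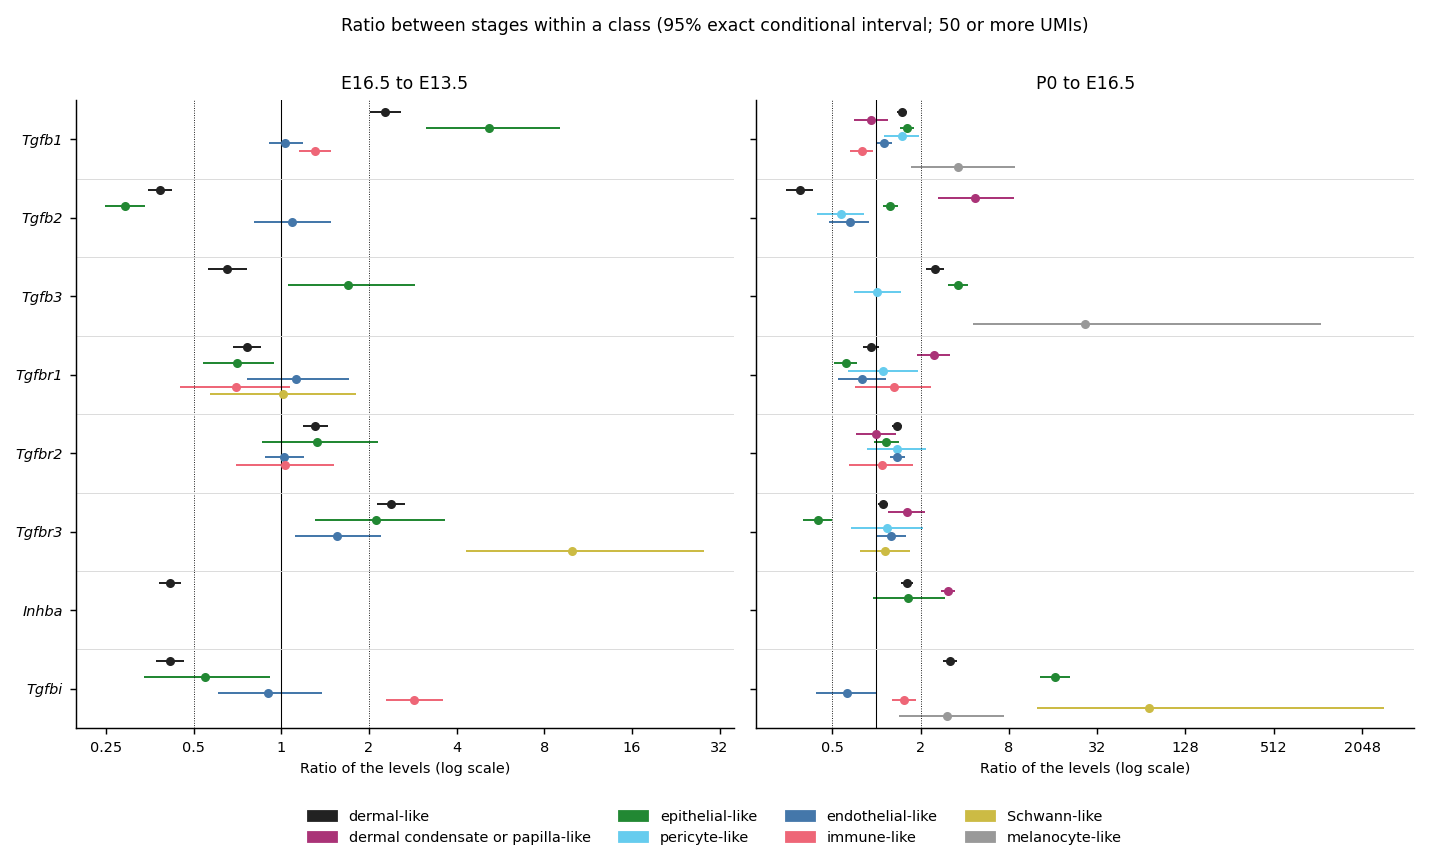
Ratio of levels at the later to the earlier stage (log axis) for each of the 8 genes in each class present at both stages, with exact 95% intervals that cover counting error only. Dermal *Tgfb2* lies below 1 at both steps, and epithelial *Tgfbi* rises from E16.5 to P0.

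From E13.5 to E16.5 the dermis gained *Tgfb1* and *Tgfbr3* and lost *Tgfb2*, *Inhba* and *Tgfbi*. In dermal-like cells *Tgfb1* went from 19.7 to 44.9 CPM (2.28-fold, 2.01 to 2.58) and *Tgfbr3* from 24.9 to 59.0 CPM (2.37-fold, 2.13 to 2.65). *Tgfb2* went from 60.3 to 23.1 CPM (ratio 0.383, 0.348 to 0.422), *Inhba* from 74.5 to 30.9 CPM (0.415, 0.381 to 0.452) and *Tgfbi* from 44.7 to 18.6 CPM (0.416, 0.372 to 0.464). *Tgfbr1*, *Tgfbr2* and *Tgfb3* had ratios of 0.763, 1.31 and 0.652 and were not called. Of all genes compared in this class, 7.29% were called higher and 8.2% lower. The call on *Inhba* was kept under 10 of 13 alternatives, with ratios between 0.224 and 0.556 over all of them. The ratio was 0.149 (0.131 to 0.168) with the condensate-like cells of E16.5, a class not named at E13.5, left out.

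From E16.5 to P0 dermal-like cells lost more *Tgfb2*, to 6.92 CPM (ratio 0.30, 0.241 to 0.369). *Tgfb3* rose from 11.7 to 29.4 CPM (2.52-fold, 2.19 to 2.90) and *Tgfbi* from 18.6 to 59.1 CPM (3.18-fold, 2.86 to 3.53). *Inhba* (1.62), *Tgfb1* (1.49), *Tgfbr2* (1.38), *Tgfbr3* (1.11) and *Tgfbr1* (0.925) were not called. Outside the condensate and papilla *Inhba* stood at 11.1 and 11.8 CPM (1.07, 0.877 to 1.29), and *Tgfb3* and *Tgfbi* were called there too (2.51 and 2.99). The background was 6.46% of genes higher and 15.3% lower. The rises of *Tgfb3* and *Tgfbi* were no longer called among cells with at least 2500 genes, where the ratios were 1.38 and 1.95.

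In the epithelium *Tgfb1* rose first, then *Tgfb3* and *Tgfbi*. Epithelial-like cells had 6.86 CPM of *Tgfb1* at E13.5 and 35.4 at E16.5 (5.15-fold, 3.14 to 9.09), with 57.2 CPM at P0. *Tgfb2* went from 111 to 32.2 CPM (ratio 0.291, 0.249 to 0.341) and stood at 40.0 CPM at P0. Periderm-like cells were 88 of 213 cells of the class in the first library and 94 of 874 in the second. Within them *Tgfb2* went from 196 to 41.8 CPM. Those of E16.5 were a single cluster, with *Krt1* and *Krt10* of the suprabasal list among its leading genes. Without periderm-like cells *Tgfb2* was at 38.8 and 31.0 CPM, a ratio of 0.798 (0.591 to 1.098) that was not called, while *Tgfb1* was still called (4.79-fold). The part of class make-up in the fall was not tested. *Tgfbr3* had ratios of 2.12 (1.31 to 3.64) and then 0.398 (0.317 to 0.498), with levels of 7.72, 16.3 and 6.51 CPM. The P0 levels of *Tgfb1* and *Tgfb2* had ratios of 1.62 and 1.24 to E16.5 and were not called, and the first call on *Tgfbr3* was kept under 11 of 13 alternatives and lost without the periderm-like cells (1.69, 0.946 to 3.33). The background was 7.85% of genes higher and 9.39% lower at the first step and 6.89% and 11.4% at the second. *Tgfb3* went from 8.15 through 13.8 to 49.4 CPM, a called rise of 3.59-fold (3.07 to 4.23) at the second step. *Tgfbi* went from 9.86 through 5.4 to 88.6 CPM, of which the second step was 16.4-fold (13 to 21), and that rise was called under all 13 alternatives.

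In endothelial-like cells 6 of the 8 members had enough UMIs to be compared at each step, and 0 were called. *Inhba* and *Tgfb3* had too few. *Tgfb1* had ratios of 1.03 and 1.13 and *Tgfbr2* of 1.02 and 1.39 there, where 4.79% of genes were called higher and 2.35% lower at the first step and 4.64% and 13.6% at the second. With the lymphatic-like cells of E16.5 left out, a class not named at the other stages, *Tgfbi* was called lower at the first step (20.8 to 5.38 CPM; ratio 0.259, 0.147 to 0.449). Pericyte-like cells, compared between E16.5 and P0, had no member called either (background 5.96% higher and 10.8% lower). In immune-like cells *Tgfbi* rose from 59.4 to 170 CPM between E13.5 and E16.5 (2.86-fold, 2.28 to 3.61; background 3.65% higher and 2.31% lower) and *Tgfb1* was not called at 1.31-fold. From E16.5 to P0 no member was called in these cells (3.86% higher and 11.8% lower). At E13.5 the immune-like cells included 52 mast-like cells among 163, in which *Tgfbi* was at 19.9 CPM against 84.9 CPM in macrophage-like cells (4.26-fold, 2.13 to 9.68).

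The small classes of neural crest origin also moved. In Schwann-like cells *Tgfbr3* rose 9.98-fold (4.31 to 28.3; 6 and 57 UMIs) from E13.5 to E16.5 (background 4.95% of genes higher and 2.46% lower), and *Tgfbi* 72.5-fold (12.5 to 2912; 1 and 58 UMIs) from E16.5 to P0 (5.59% and 9.08%). The first call was kept under 11 of 13 alternatives (ratios of 4.17 to 10.5) and the second under 10 of 12 (10.5 to 273). The summed dermal markers in Schwann-like cells stood at 689.7, 4613 and 8819 CPM through the stages, and their part in these rises was not tested. In melanocyte-like cells *Tgfb1* rose 3.62-fold (1.73 to 8.77), *Tgfbi* 3.03-fold (1.43 to 7.39) and *Tgfb3* 26.6-fold (4.59 to 1070; 1 and 56 UMIs) from E16.5 to P0 (5.41% and 8.32%), and none was called at the earlier step (3.7% and 5.58%). The summed epithelial markers in melanocyte-like cells rose with them, from 1619 to 6214 CPM, and the melanocyte calls were kept under 7, 6 and 6 of 10 alternatives. The part of epithelial RNA in them was not tested.

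Within the dermis the members separated the cells named upper, deep and condensate or papilla from their markers. Condensate-like cells numbered 411 at E16.5 in 3 clusters and papilla-like cells 137 at P0 in 2 clusters. They were compared with the other dermal-like cells of their library, where 8 of 16 member ratios were called, 4 higher and 4 lower (50%), against 18.6% of the ratios of all genes (11.4% higher and 7.14% lower). At E16.5 1 member was called higher and 2 lower (7.43% and 7.16% of all genes), and at P0 3 higher and 2 lower (16% and 7.12%).

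*Inhba* was the member that set the condensate and papilla apart. At E16.5 it stood at 179 CPM (166 to 192) in condensate-like cells and 11.1 CPM in the rest of the dermis (16.1-fold, 14.1 to 18.5). At P0 it stood at 547 CPM (503 to 594) in papilla-like cells and 11.8 CPM in the others (46.3-fold, 38.8 to 55.5). The call held under all 13 alternatives at E16.5 (ratios of 7.81 to 19.4) and all 11 at P0 (21.1 to 71.9). Condensate-like cells held 58.0% of all *Inhba* UMIs of the E16.5 library and papilla-like cells 65.1% of those at P0. The gene was seen in 52.8% of condensate-like and 87.6% of papilla-like cells, or 38.4% and 68.6% when each cell was thinned to 3500 UMIs. In endothelial-like cells, taken as a class that should lack it, the thinned share was 0.347% at E16.5, and at P0 no cell of 185 had a UMI, which allows up to 1.97%. Median depth was 8699 and 6236 UMIs in condensate-like and papilla-like cells and 17542 and 9435 UMIs in endothelial-like cells.

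The condensate clusters were unequal in *Inhba* at E16.5. The cluster of 202 cells, led by *Bmp3*, *Hes5*, *Bmp4*, *Sox2* and *Sox18*, was at 282 CPM (259 to 308), and *Inhba* itself was among the genes that led it against the rest of the library. The clusters of 169 and 40 cells were at 82.1 CPM (68.5 to 97.6) and 88.3 CPM (63.4 to 120), still above every other dermal cluster. At P0 the clusters of 94 and 43 cells were alike, at 562 CPM (505 to 624) and 524 CPM (456 to 599), and the lowest dermal cluster was at 3.04 CPM.

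**Figure D3:**
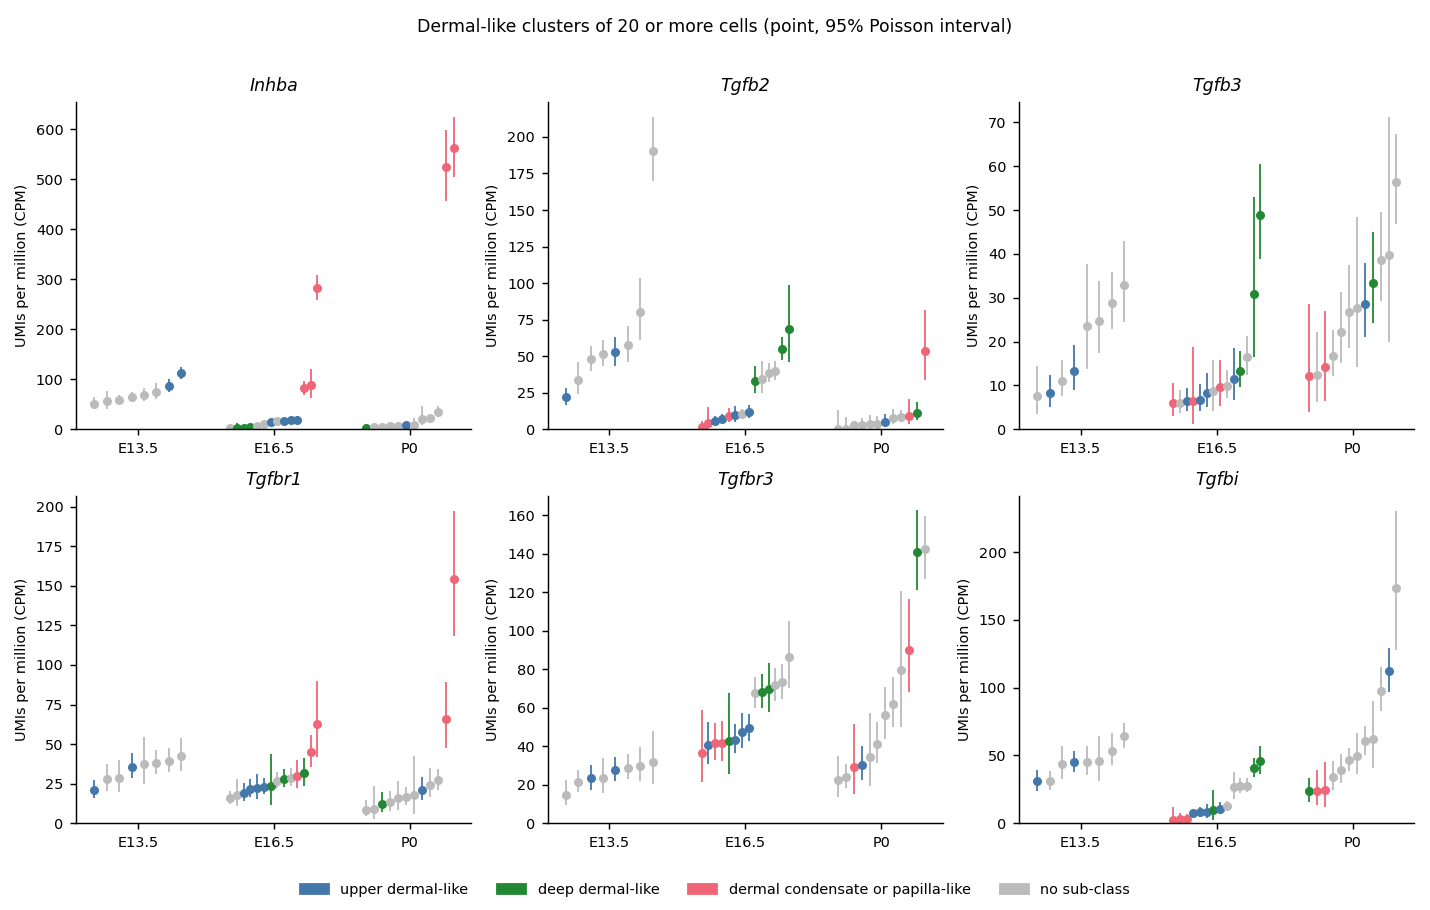
Levels (CPM, linear axis) of *Inhba*, *Tgfb2*, *Tgfb3*, *Tgfbr1*, *Tgfbr3* and *Tgfbi* in the clusters of dermal-like cells at each stage, by dermal class, with exact 95% Poisson intervals. A cluster of 7 cells at E13.5 is left out. The condensate and papilla clusters hold the highest *Inhba* values, up to 282 CPM (E16.5) and 562 CPM (P0).

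The remaining members of the condensate followed different courses. *Tgfbr1* was at 41.0 CPM in the condensate and 23.7 CPM outside it (ratio 1.73, not called) and in the papilla at 101 CPM (82.3 to 122) against 17.9 CPM (5.63-fold, 4.43 to 7.11). *Tgfb2* was low in the condensate, at 5.67 against 25.4 CPM (ratio 0.223, 0.139 to 0.340), and higher in the papilla, at 26.8 CPM (28 UMIs) against 5.39 CPM (4.98-fold, 3.10 to 7.79). Of those 28 UMIs, 22 came from the papilla cluster of 43 cells, at 53.8 CPM (33.7 to 81.5), and 6 from the cluster of 94 cells, at 9.45 CPM (3.47 to 20.6). *Tgfbi* was below other dermal-like cells at both stages (ratios 0.150, 0.0769 to 0.264, and 0.388, 0.249 to 0.576), and *Tgfb3* was called lower at P0 (0.438, 0.237 to 0.743). Low *Tgfb2* and *Tgfbi* were not particular to the condensate at E16.5, where upper dermal-like cells were also low in both beside deep cells. At P0 *Tgfbi* was at 23.95 CPM in papilla-like and 23.56 CPM in deep dermal-like cells. At P0 the call on *Tgfbi* was kept under 9 of 11 alternatives (ratios up to 0.802) and that on *Tgfb3* under 8 of 11 (up to 0.703), and the calls on *Tgfb2* under 12 of 13 at E16.5 and 10 of 11 at P0. *Tgfb1*, *Tgfbr2* and *Tgfbr3* were not called, with ratios between 0.668 and 1.87. The dissociation list stood at 7935 CPM in papilla-like cells and 1513 CPM in condensate-like cells, and 4 of its 12 genes were called higher and 1 lower in the papilla against other dermal-like cells.

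Between condensate-like cells at E16.5 and papilla-like cells at P0, *Inhba* rose 3.06-fold (2.74 to 3.43), *Tgfbr1* 2.45-fold (1.90 to 3.16) and *Tgfb2* 4.73-fold (2.61 to 8.68; 22 and 28 UMIs). The background was 8.49% of genes higher and 11.2% lower. *Tgfb2* was the least certain, with its call kept under 6 of 11 alternatives at ratios of 1.69 to 8.25. *Inhba* and *Tgfbr1* kept theirs under 10 of 11, and *Inhba* fell to 1.35 where each cell was named by its own markers.

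Upper and deep dermal-like cells differed in all ligands at E16.5 except *Tgfb1*. *Tgfb2* was at 8.09 CPM in upper and 49.5 CPM in deep cells (ratio 0.163, 0.127 to 0.209), *Tgfb3* at 7.62 and 25.4 CPM (0.30, 0.226 to 0.397) and *Tgfbi* at 8.37 and 39.8 CPM (0.210, 0.163 to 0.270). *Inhba* went the other way, at 16.6 and 3.24 CPM (5.13-fold, 3.16 to 8.86). *Tgfbr2* was at 30.4 and 61.1 CPM (0.498, 0.426 to 0.581), a call kept under 7 of 12 alternatives. Of all genes, 9.11% were called higher and 7.52% lower in upper cells. Of the 973 upper cells, clusters of 287, 284 and 153 were led by cell cycle genes such as *Ube2c*, *Cdc6* and *Cdc20*. The named deep clusters were not. Clusters of 230 and 85 cells nearest the deep list, with cell cycle genes among their leading genes, had no sub-class. The part of the cell cycle in these differences was not tested.

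At P0 the upper and deep cells were 1 cluster each, of 324 and 180 of the 2282 dermal-like cells. Within the dermis the upper cluster was led by *Meox2*, a gene of the deep list. *Crabp1* of the upper list was also among its leading genes, so the name of this cluster is uncertain. *Ly6a* and *Mfap5* of the deep list were among the leading genes of the deep cluster. *Tgfbr3* stood at 141 CPM (121 to 162) in deep and 30.4 CPM in upper cells (ratio of upper to deep 0.216, 0.155 to 0.296), and *Tgfbr2* at 104 and 43.5 CPM (0.418, 0.310 to 0.559). *Tgfb1* (68.5 and 31.9 CPM; 2.15-fold, 1.5 to 3.13) and *Tgfbi* (112 and 23.6 CPM; 4.75-fold, 3.24 to 7.2) were higher in upper cells, so that *Tgfbi* had the opposite side to E16.5. The call on *Tgfbr3* was kept under all 10 alternatives, those on *Tgfb1* and *Tgfbr2* under 6 and that on *Tgfbi* under 7, with a *Tgfbi* ratio of 0.870 at resolution 2. A dermal cluster of 328 cells outside both classes had 142 CPM of *Tgfbr3* and 60.5 CPM of *Tgfbi*. The background here was 17% of genes higher and 5.97% lower, and the dissociation list differed between these cells, at 3105 CPM in upper and 7589 CPM in deep cells.

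At E13.5, where no condensate class was named, upper dermal-like cells had the most *Inhba*, at 101 CPM (92.4 to 110). Across the 8 dermal clusters of that stage *Inhba* ranged from 51.2 CPM to 112 CPM, the latter in 307 upper dermal-like cells led by *Calb1*, *Nrgn* and *Crabp1*. *Tgfb2* had the opposite pole there: the same cluster was lowest at 22.1 CPM, and 152 cells led by *Aspn*, *Smoc2*, *Nppc*, *Fbln5* and *Fgf7* were highest at 191 CPM (170 to 213).

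The cartilage or tendon-like cells of E13.5, 392 in 6 clusters, varied as well. *Tgfb2* ranged from 139 to 507 CPM (444 to 577), the highest in 63 cells led by *Otor*, *Grp*, *Col14a1* and the tendon gene *Tnmd*. The same cluster had the most *Tgfbi*, at 525 CPM, which was itself among its leading genes. *Tgfb3* peaked instead in 66 cells led by *C1qtnf3*, *Aspn* and *Mgp*, at 192 CPM, with 65.6 CPM in the lowest cluster.

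In the epithelium the members divided basal epidermis, hair matrix, root sheath and periderm. Each class was compared with the other epithelial-like cells of its library. Of 44 ratios, 6 were called higher and 14 lower (45.5%), against 13.4% of the ratios of all genes (4.95% higher and 8.45% lower).

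**Figure D4:**
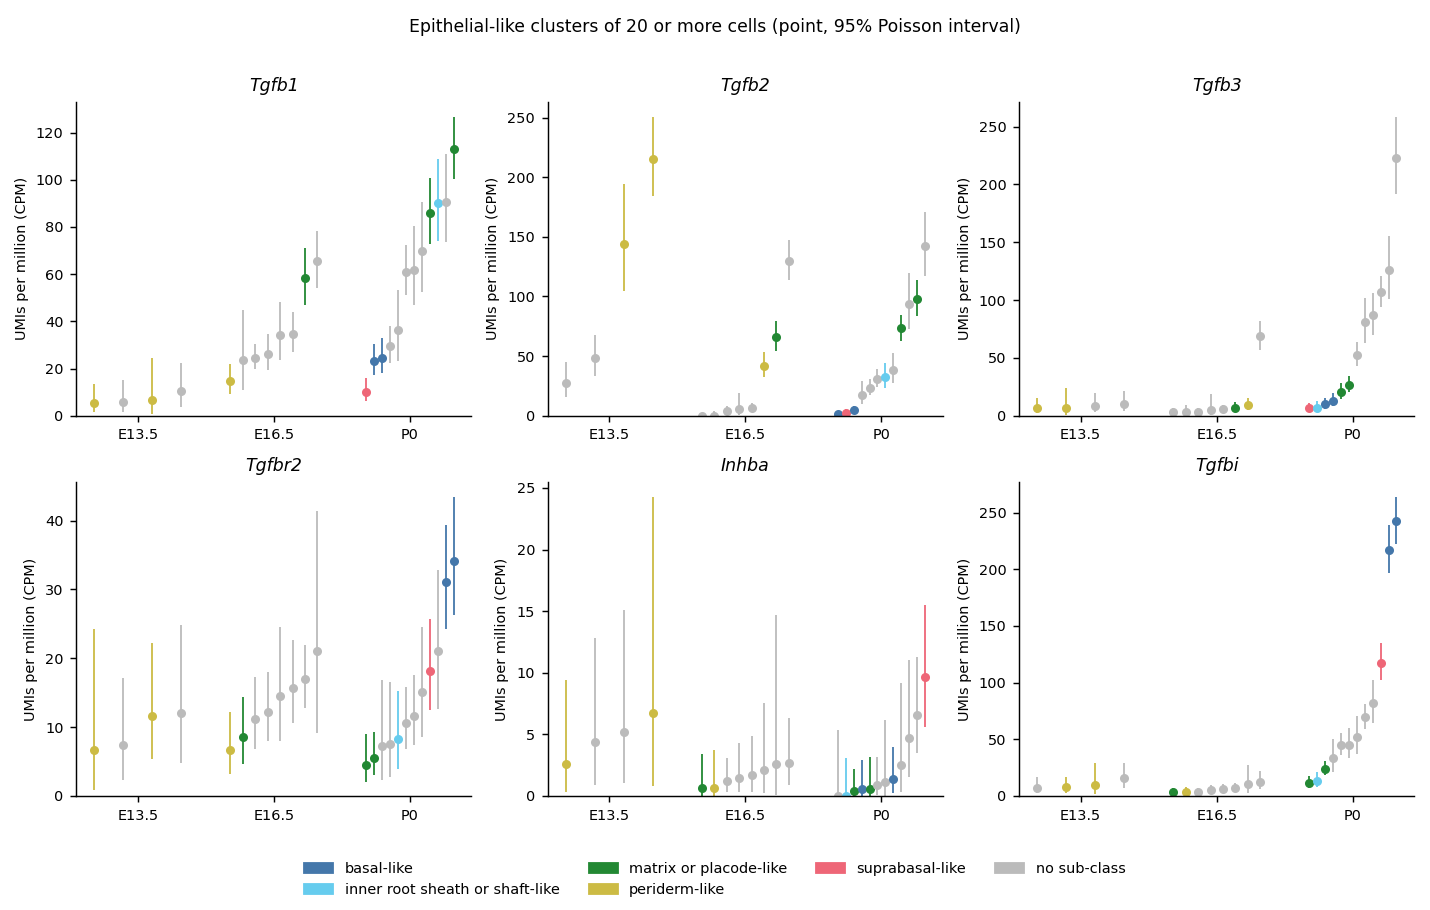
Levels (CPM, linear axis) of *Tgfb1*, *Tgfb2*, *Tgfb3*, *Tgfbr2*, *Inhba* and *Tgfbi* in the clusters of epithelial-like cells at each stage, by epithelial class, with exact 95% Poisson intervals. *Tgfbi* is highest in the basal clusters at P0, and *Tgfb2* and *Tgfb3* in a *Sox9* cluster outside the named classes.

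Epithelial *Tgfb2* was highest in the periderm at E13.5 and in the follicle later. In periderm-like cells, the flat outer layer of embryonic skin, it stood at 196 CPM (170 to 224) at E13.5, 5.04-fold (3.68 to 7.03) above other epithelial-like cells. Among the epithelial clusters of at least 50 cells at E13.5, the lowest level was 27.5 CPM. It was that of 64 cells led by *Dkk4* and by *Lef1* of the matrix or placode list, which had no sub-class. At E16.5 periderm-like cells were at 41.8 CPM, where 63 UMIs came from 8.51% of the cells. Matrix or placode-like cells, the proliferating epithelium next to the condensate, were at 66.1 CPM at E16.5 (2.40-fold, 1.92 to 3.0) and 83.3 CPM at P0 (3.04-fold, 2.63 to 3.51). Basal-like cells of P0 were at 2.91 CPM (ratio 0.0579, 0.0298 to 0.102) and suprabasal-like cells at 2.27 CPM (0.0518). Where each cell was named by its own markers, the ratios of basal-like cells turned to 1.06 for *Tgfb2* and 2.61 for *Tgfb3*, which stood at 0.190 (0.139 to 0.255) here.

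The highest follicle levels of *Tgfb2* and *Tgfb3* lay in the same clusters, which no class list named. At E16.5, 105 cells led by *Ccer2*, *Lhx2*, *Pthlh*, *Sox9* and *Pou4f3* had 130 CPM of *Tgfb2* (114 to 148) and 68.8 CPM of *Tgfb3* (57.2 to 82.1). The other clusters of the epithelial class at that stage had at most 9.30 CPM of *Tgfb3*. At P0, 81 cells led by *Tbx1*, *Krtap17-1*, *Shisa2*, *Sox9* and *Sfrp1* had 142 CPM of *Tgfb2* (117 to 171) and 223 CPM of *Tgfb3* (191 to 259). *Lhx2*, *Sox9* and *Tbx1* are known from the outer root sheath and the stem cell precursors of the follicle.

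*Tgfb1* in the P0 epithelium was highest, among the named classes, in the matrix and inner root sheath. Matrix-like cells were at 102 CPM (2.3-fold, 2.03 to 2.60, above other epithelial-like cells) and inner root sheath or shaft-like cells at 90.3 CPM. Basal-like cells were at 23.8 CPM (ratio 0.358) and suprabasal-like cells at 10.2 CPM (0.165). The call in basal-like cells was lost where each cell was named by its own markers (0.954), and that in matrix-like cells was kept under 11 of 13 alternatives (lowest ratio 1.77). At E16.5 periderm-like cells were the low class, at 14.6 CPM (0.385, 0.239 to 0.590).

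*Tgfbi* and the receptor *Tgfbr2* were highest on the opposite side, in the basal epidermis. In basal-like cells of P0 *Tgfbi* stood at 231 CPM (216 to 246), 4.68-fold (4.25 to 5.16) above other epithelial-like cells. Suprabasal-like cells were at 118 CPM, matrix-like cells at 18.9 CPM and inner root sheath-like cells at 13.3 CPM. *Tgfbr2* was at 32.5 CPM in basal-like cells (3.09-fold, 2.43 to 3.91) and 5.13 CPM in matrix-like cells (ratio 0.282). *Tgfb3* was low in every named epithelial class of P0, at 24.3 CPM in matrix-like, 11.4 in basal-like, 6.63 in inner root sheath-like and 6.25 in suprabasal-like cells. The dissociation list stood at 7163 CPM in basal-like and 8297 CPM in suprabasal-like cells against 2057 and 955 CPM in matrix-like and inner root sheath-like cells. Its part in these differences was not tested.

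The other genes of the pathway were followed through a list of 59 genes: further ligands, latency proteins, receptors, Smads, inhibitors and response genes. In the comparisons of condensate and papilla with other dermal-like cells, 17 of 94 ratios were called higher and 16 lower (35.1%), where 18.6% of those of all genes were called. By role, 11 of the 22 ratios of inhibitors were called higher and 1 lower, and 0 of 12 ratios of Smads were called. Ligands had 0 called higher and 2 lower of 5, receptors 0 and 2 of 11, latency genes 3 and 5 of 26, and response genes 3 and 6 of 18.

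**Figure D5:**
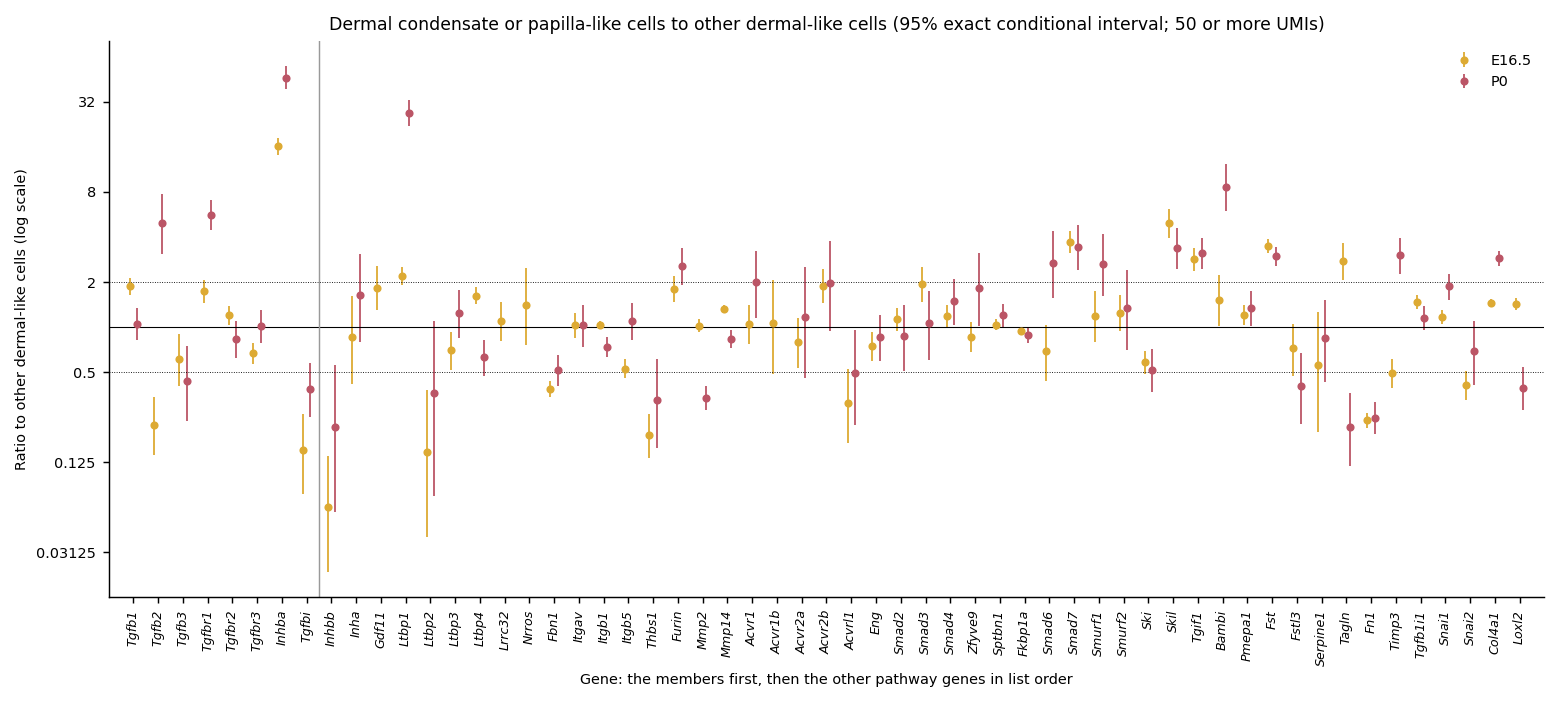
Ratio of the level in condensate-like (E16.5) and papilla-like (P0) cells to that in other dermal-like cells (log axis) for the members and the other pathway genes, grouped by role, with exact 95% intervals that cover counting error only. *Inhba* is the highest member at both stages, and *Fst*, *Smad7*, *Skil* and *Tgif1* among the inhibitors lie above 1.

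The inhibitors that were higher act at several levels of the pathway. *Fst* (follistatin, which traps activin) was at 127 CPM in the condensate and 36.2 CPM outside it (3.51-fold, 3.14 to 3.91) and at 238 and 80.1 CPM at P0 (2.97-fold). *Smad7*, which blocks the type I receptor, was 3.71-fold (3.11 to 4.40) and 3.42-fold higher, and *Skil* (SnoN, a Smad co-repressor) 4.94-fold (3.96 to 6.15) and 3.38-fold. *Tgif1*, another co-repressor, was 2.83-fold and 3.11-fold higher. At P0 *Bambi*, a decoy receptor, was at 50.8 CPM in the papilla and 5.91 CPM outside it (8.60-fold, 5.96 to 12.3).

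Latency and matrix genes split in the papilla. *Ltbp1*, which anchors latent Tgf-beta in the matrix, was at 309 CPM in the papilla and 11.4 CPM outside it at P0 (27.0-fold, 22.2 to 32.9), and 2.21-fold higher in the condensate. *Thbs1*, an activator of latent Tgf-beta, had ratios of 0.189 and 0.327, and *Fn1* 0.238 and 0.248. *Inhbb*, the other activin subunit, was at 1.55 CPM in the condensate and 24.5 CPM outside it (ratio 0.0630), on the opposite side from *Inhba*, and at a ratio of 0.214 at P0.

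Some other pathway genes were high in a class in which a member was highest. In endothelial-like cells, where *Tgfbr2* was highest, the co-receptor *Eng* stood at 253, 404 and 429 CPM, 16.7-fold above all other cells in the first library and 14.6-fold in the last. The endothelial type I receptor *Acvrl1* was 10.4-fold, 7.59-fold and 8.90-fold above them. In immune-like cells, where *Tgfb1* was highest, *Nrros*, which tethers latent Tgfb1 on macrophages, stood at 213, 307 and 194 CPM, 26.9-fold, 20.7-fold and 17-fold above the rest. *Lrrc32*, which tethers it on other cells, had ratios of 0.364 and then 0.119 between stages in dermal-like cells. *Fst* rose 5.17-fold in dermal-like and 8.29-fold in epithelial-like cells from E13.5 to E16.5. Over all classes the 59 genes had 59 of 428 stage ratios called higher and 43 lower (23.8%, against 15.4% of all genes), and 150 of 1259 class ratios called higher and 377 lower (41.9%, against 22.0%).

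The genes whose log levels ran most like those of a member over the 24 classes and stages are given as a description, since the classes share libraries and depth. *Inhba* ran with *Pdgfra* (r = 0.955), which is also one of the markers that named dermal-like cells, *Rspo1* (0.948) and *Wnt11* (0.945). *Tgfbr2* ran with *Vamp5* (0.932), *Sox18* (0.893) and *Cd34* (0.891), and *Tgfb1* with *Ostf1* (0.897), *Lyn* (0.894) and *Nmi* (0.889). *Tgfbr3* ran with *Rftn2* (0.873) and *Tgfb2* with *Spin1* (0.831). The first genes beside *Tgfbr1*, *Tgfb3* and *Tgfbi* were *Ikbkap* (0.816), *Mgp* (0.748) and *Idua* (0.738). Among the members themselves the highest values were those of *Tgfb1* with *Tgfbr2* (0.60), *Tgfbr2* with *Tgfbr3* (0.589) and *Tgfb2* with *Tgfb3* (0.572), and the lowest was that of *Tgfb1* with *Tgfb2* (-0.631).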

How the data were processed

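The authors pooled dorsal skin of male mice, made 1 library per stage with 10x 3′ v2 chemistry, ran Cell Ranger 2.2.0 on mm10, removed genes seen in fewer than 3 cells and cells with fewer than 1750 genes, and deposited the natural log of 1 plus UMIs per 10000 UMIs of the cell. The formula was found from the values: all 48197283 values above 0 gave whole UMIs within 0.001. The table holds 16235 cells, and the design text states 15086. The total per library was 46599806 to 66239195 UMIs.

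Each library was clustered alone (scanpy 1.11.5, leidenalg 0.10.2, Python 3.11.15, scipy 1.17.1), with 2000 variable genes without the pathway genes, 30 components, 15 neighbours and resolution 1. Clusters took the name whose markers stood highest on average (log2 of CPM + 10) above the 25th percentile of clusters, where at least 3 markers exceeded it by 1 on that scale. Clusters led by genes of another class were left unnamed, a rule chosen after the clusters were seen. Scrublet, at a rate of 0.06, marked 77 cells at E16.5 (1.48%) and 101 at P0 (1.99%), which were kept, and 0 at E13.5, where it had not worked.

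Intervals are exact at 95% (Poisson for sums, conditional for ratios, binomial for shares) and cover counting error only. With 1 library per stage no test could be run. Ratios used at least 50 UMIs in the groups together. The method was tested on simulated data for dermal-like cells of E16.5 against E13.5: over 19165 genes all 200 changed genes and 10 of 12394 unchanged genes were called. The counts were Poisson draws, as the intervals assume, without variation between cells or libraries. Changed genes were taken from those with at least 200 UMIs and changed 3-fold or 4-fold in either direction. The simulation therefore cannot show how calls near the limits, or between real libraries, behave. The members, gene lists and marker lists were chosen with earlier results of these data known. All members were named, pathway genes were named from those called, at most 4 of a list, and the 3 genes most alike to each member by Pearson correlation of log2(CPM + 10). Alternatives used other resolutions (0.5, 2), 4000 variable genes, pathway genes among the features, and changes to the naming, the doublets, the genes per cell (2500), the depth (thinned to 3500 UMIs), the weight of cells, the scaling, the ratio (1.5) and the minimum of UMIs. Gene positions are from GENCODE vM21 (GRCm38), and promoter windows from RefSeq (GRCm38.p6), which had no entry for *Tgfb3* or *Tgfbr3* in the table used.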

Additional observations from a re-analysis of the deposited data

Results flagged for a closer look

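*Tgfbi* moved in opposite directions in 2 classes between E13.5 and E16.5: the ratio of the later to the earlier level was 2.86 in immune-like cells and 0.416 in dermal-like cells. *Tgfb2* did so between E16.5 and P0, with a ratio of 4.73 from condensate-like to papilla-like cells and 0.3 in dermal-like cells as a whole, of which the papilla-like cells are a part. With 1 library per stage neither difference was tested.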

How the results depend on the processing

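No paired analysis was possible because each stage had 1 library. Members called between stages numbered 23, against 15 with each cell thinned to 3500 UMIs and 35 at a ratio of at least 1.5, and between 18 and 34 under the other alternatives. The highest of these, 34, came from keeping clusters led by genes of another class, an alternative chosen after seeing the data. Calls against other cells of the library numbered 100 (85 to 125), and those in epithelial classes 20 (14 to 24). Calls in the condensate and papilla numbered 8, and 3 to 11 under the alternatives. They numbered 3 at resolution 0.5 and with the reference at the median of clusters, where the papilla of P0 could not be compared. Calls on other pathway genes numbered 739 (536 to 1042).

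Called ratios that turned direction with a UMI in both groups were *Tgfb1* in erythroid-like cells at E13.5 (0.295 to 1.11), and *Tgfb2* (0.0579 to 1.06) and *Tgfb3* (0.190 to 2.61) in basal-like cells at P0, all where each cell was named by its own markers. At resolution 0.5 so did *Inhba* in dermal-like cells (11 to 0.402) and *Tgfb3* in matrix-like cells (0.428 to 1.07), both at P0, and at resolution 2 *Tgfbi* in upper against deep dermal-like cells at P0 (4.75 to 0.870). The others at E16.5 were *Inhba* in dermal-like cells with the reference at the median of clusters (5.68 to 0.867) and *Tgfbr2* in periderm-like cells thinned to 3500 UMIs (0.478 to 1.22). The median log2 ratio of all genes lay between -0.27 and -0.03 in the stage comparisons. Ratios scaled to that median gave 23 stage calls, 99 against other cells, 8 in the condensate and papilla and 20 in epithelial classes. Leaving out the called doublets, of which E13.5 had 0, left each ratio within its counting interval and lost 2 calls (*Tgfbr2* and *Tgfbr3* in melanocyte-like cells at E16.5). Stage ratios without periderm-like, condensate-like or papilla-like, mast-like or lymphatic-like cells, and the alternatives for upper against deep and macrophage-like against mast-like cells, were chosen after seeing the data. Beyond the changes of cell classes that the alternatives make by construction, the causes were not tested.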
